A study of Mus musculus with 30 samples.

Results

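The genes described here set the entry of a cell into a new division cycle. They are the D-type cyclins Ccnd1, Ccnd2 and Ccnd3, their kinases Cdk4 and Cdk6, the kinase inhibitors Cdkn1a, Cdkn1b, Cdkn2c and Cdkn2d, and the retinoblastoma gene Rb1. These 10 genes were picked by gene symbol from the platform annotation of the arrays. A probe set annotated to 1 symbol only was present for 9 of the 10, among 19937 such genes on the array. Cdkn1a shared its probe set with a second symbol and is not analysed here. All 9 measured genes passed the filter on dim genes in both experiments.

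D-type cyclins bind CDK4 or CDK6, and the complex phosphorylates the retinoblastoma protein in the G1 phase. Phosphorylated retinoblastoma protein releases the E2F transcription factors, which switch on the genes of DNA replication. The INK4 proteins, among them those made from Cdkn2c and Cdkn2d, bind CDK4 and CDK6 directly, whereas p27, made from Cdkn1b, acts on cyclin and kinase complexes, CDK2 complexes included. In B cells, cyclin D2 is known for its induction by antigen receptor signals, cyclin D3 for the expansion of germinal centre (GC) cells, and the Cdkn2c product p18 for the formation of functional plasma cells (PC).

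The cells came from CeGFP BALB/c mice, which carry an IRES-GFP cassette knocked into the 3' untranslated region of membrane IgE. All mice, including those that gave the naive cells, were infected with Nippostrongylus brasiliensis, and mesenteric lymph nodes were taken on day 10. GFP marks IgE cells in this strain, and also those IgG1 cells whose second, non-productive heavy chain chromosome was rearranged to epsilon. The sources used here give no age for the mice. In the first experiment, 18 arrays held GFP- IgG1 GC cells (3 arrays), GFP+ IgG1 GC cells (3), IgE GC cells (3), GFP+ IgG1 PC (2), IgE PC (4) and naive B cells (3). In the second, 12 arrays held IgG1 GC cells of the dark zone (DZ, sorted as CXCR4high CD86low) and the light zone (LZ, CXCR4low CD86high), each GFP+ or GFP-, with 3 arrays per group. Replicates of a group were independent sorts and every array pooled 3 mice, so a value is an average over mice. The labels do not say if same-numbered arrays of different groups came from a shared sort.

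Signals are given on the log2 scale, on which a difference of 1 is a 2-fold change, and array medians lay between 5.28 and 5.47. A gene is called higher or lower where its adjusted p in limma was under 0.05. The proliferation marker Mki67 had a mean signal of 4.91 in naive cells, 10.73 to 10.97 in the GC groups and 10.54 to 10.60 in the PC groups. The mean of 4 GC markers was 9.26 to 9.67 on the GC arrays, 6.12 to 6.75 on the naive arrays and 6.24 to 7.50 on the PC arrays, and Bcl6 was near array background in PC only. Naive arrays were the least alike, correlating with their own group at 0.936 to 0.949 against at least 0.962 elsewhere in that experiment. Within their groups, naive replicate 1 and GFP+ IgG1 GC replicate 3 stood apart from the remaining arrays. The mean of 8 macrophage and dendritic cell markers was higher on naive arrays, at 5.23 to 5.93 against 4.68 to 5.07 on the GC arrays. Of these 8 genes, Tyrobp, Siglech and Fcer1g were lower in each GC group and 5 were not called or not tested. Cd68 went the other way, with a mean of 6.08 in naive cells against 6.77 to 7.21 in GC cells. Lyz2 in naive cells (4.51) lay among its GC means (4.13 to 4.86). Of 6 tested stromal and endothelial markers, 2 or 3 were lower in each GC group. Among them were Pecam1 (9.56 in naive cells, 7.18 to 7.87 in GC cells) and Ccl19 (8.78 against 7.62 to 8.0). The mean of Cdh5 went the other way (4.83 against 4.96 to 5.12). The mean of the 7 listed genes was 6.25 to 6.68 on the naive arrays against 5.76 to 6.14 on the GC arrays. Of 5 tested T cell markers, 1 to 3 were lower, Cd8a in each GC group (6.06 against 5.16 to 5.34). The part of such cells in the differences from naive cells was not tested. In sorted bulk cells, fewer cells that express a gene and less RNA per cell cannot be told apart.

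Cdk4 is shown by sequence because it was the only one of these promoters that held the letters CACGTG, the E-box bound by MYC and related factors, 4 times. Promoter windows from RefSeq (GRCm38.p6, 250 bases before to 50 after the start) were at hand for 6 of the 9 measured genes, in 8 windows, and not for Ccnd1, Ccnd2 or Rb1. The 4 stretches of the Cdk4 window, on the plus strand and with the E-box in capitals, were:
Cdk4 chr10:127063356-127063375: agccagtCACGTGccacaca
Cdk4 chr10:127063410-127063429: aaggggtCACGTGggatagc
Cdk4 chr10:127063430-127063449: aacaggtCACGTGgccgtca
Cdk4 chr10:127063517-127063536: tgaagatCACGTGtccagaa
Cdk6 chr5:3343666-3343685: gcggcccCACGTGggtgaac
The first bases of these E-boxes lay 172, 118, 98 and 11 bases before the Cdk4 start, and the single Cdk6 E-box, given for comparison, 220 bases before its start. CACGTG reads the same on both strands. It occurred in 7.15% of all 32851 promoter windows of this length, and 4 or more times in 8 windows, or 0.0244%. Cdkn2c held 1 E-box, 35 bases after its start. Ccnd3 held 1 forkhead (FOXO) match of the letters TGTTTAC, found in 3.65% of all windows. None of the 8 windows held the E2F letters TTTCCCGC, TTTGGCGC, TTTGCCGC or TTTCGCGC (2.26% of all windows) or the STAT letters TTCNNNGAA (8.3%). Both strands were searched, and a match is a description of the letters only.

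**Figure D1:**
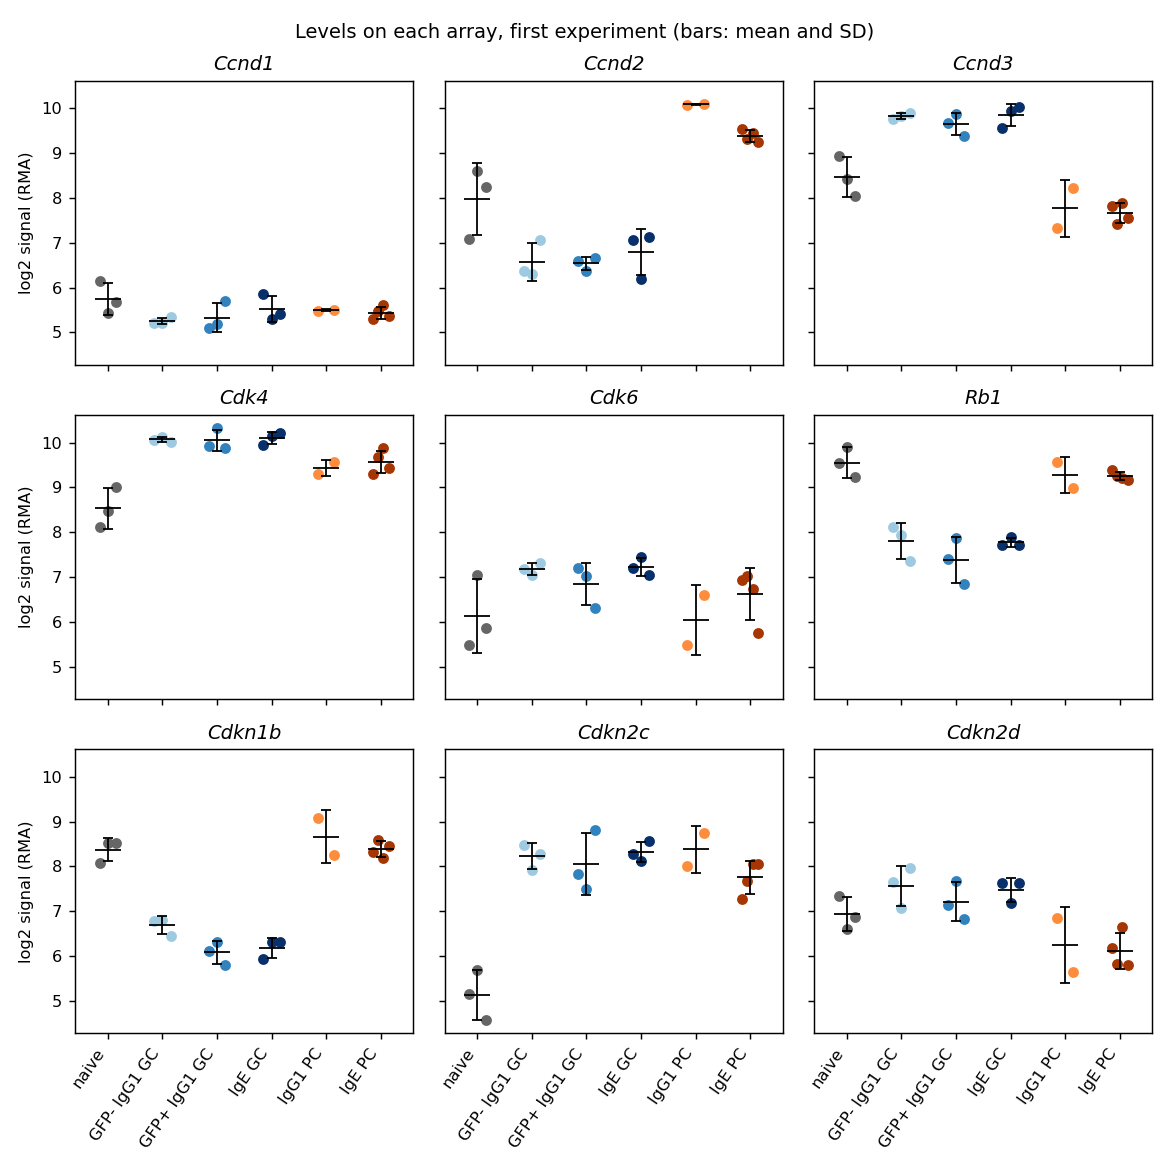
Log2 signal of the 9 measured genes on each of the 18 arrays of the first experiment, by group, with the mean and SD of each group. Ccnd2, Cdkn1b and Rb1 were low in the 3 GC groups and high in both PC groups, Ccnd3 was high in GC cells only, and Cdkn2c was low in naive cells only.

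The first question was how the genes differed between GC cells and naive B cells. In each of the 3 GC groups, Ccnd3, Cdk4 and Cdkn2c were higher than in naive cells and Ccnd2, Cdkn1b and Rb1 were lower. Ccnd1, Cdk6 and Cdkn2d passed the test in none of the 3. The 6 of 9 genes called stand beside 26.7% of all 12098 genes tested in IgE GC cells, 23.3% in GFP+ IgG1 GC cells and 29.8% in GFP- IgG1 GC cells. Higher calls made up 19.3%, 16.8% and 20.5% of all genes, and lower calls 7.40%, 6.43% and 9.35%. With a further quantile normalization the IgE comparison split into 1836 higher and 1113 lower genes, in place of 2335 and 895. The 3 comparisons share the naive arrays, so they do not support each other independently.

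Among the cyclins, Ccnd3 was at 8.93, 8.43 and 8.05 on the naive arrays. Its signal was 9.57, 9.94 and 10.03 in IgE GC cells, 9.66, 9.88 and 9.39 in GFP+ IgG1 GC cells and 9.77, 9.84 and 9.89 in GFP- IgG1 GC cells. Every GC array lay above every naive array. The log2 difference from naive cells was 1.38 (SE 0.25, adjusted p = 0.000564) for IgE GC cells, a 2.60-fold higher signal. It was 1.17 (adjusted p = 0.00234) for GFP+ IgG1 GC cells and 1.36 (adjusted p = 0.000645) for GFP- IgG1 GC cells.

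Ccnd2, the other D cyclin well above background, went the opposite way. Naive arrays gave 7.07, 8.59 and 8.25, IgE GC arrays 7.06, 6.19 and 7.13, GFP+ IgG1 GC arrays 6.59, 6.38 and 6.66, and GFP- IgG1 GC arrays 6.36, 6.31 and 7.07. Naive replicate 1, which stood apart from its group, lay within the range of the IgE GC arrays, while the other naive arrays lay above all GC arrays. The log2 difference from naive was -1.18 in IgE GC cells (SE 0.32, adjusted p = 0.013), -1.43 in GFP+ IgG1 GC cells (adjusted p = 0.00393) and -1.39 in GFP- IgG1 GC cells (adjusted p = 0.00439). The IgE call was lost without IgE GC replicate 2 (adjusted p = 0.0803), without naive replicate 2 (0.0545) or 3 (0.0507), and in a fit on these groups alone (0.0943).

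Ccnd1, the D cyclin of many non-lymphoid cells, stayed between 5.10 and 6.14 on the 18 arrays, close to the array medians. It lay above the median on 12 of them, and its differences from naive cells (-0.23, -0.42 and -0.50) did not pass the test.

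Of the kinases, Cdk4 was at 8.53 ± 0.45 in naive cells (SD, n = 3). It was at 10.10 ± 0.14 in IgE GC cells, 10.05 ± 0.24 in GFP+ IgG1 GC cells and 10.07 ± 0.05 in GFP- IgG1 GC cells (SD, n = 3 each). The highest naive array, at 9.01, lay below the lowest GC array, at 9.89. The differences were 1.57 (SE 0.21, adjusted p = 3.54e-05), 1.52 (5.49e-05) and 1.54 (4.92e-05), the first being 2.98-fold.

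Cdk6, the second kinase of the D cyclins, varied more. It was at 5.47, 7.04 and 5.86 in naive cells and between 6.30 and 7.44 in the GC groups, so that naive replicate 2 lay within the GC range. Its difference was 1.10 in IgE GC cells (SE 0.40, adjusted p = 0.0504), 0.71 in GFP+ IgG1 GC cells (0.211) and 1.05 in GFP- IgG1 GC cells (0.0558), and none was called. Without naive replicate 2 the same differences were 1.56 (0.00568), 1.17 (0.0297) and 1.51 (0.00648), all called.

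The inhibitors did not move as a block. Cdkn1b, which encodes p27, was at 8.07, 8.52 and 8.52 in naive cells. In GC cells it was at 5.93, 6.30 and 6.31 (IgE), 6.12, 6.32 and 5.80 (GFP+ IgG1) and 6.79, 6.81 and 6.45 (GFP- IgG1). No GC array reached a naive array. The fall was 2.19 on the log2 scale in IgE GC cells, 4.57-fold, with an adjusted p of 1.58e-06 (SE 0.22). The differences in GFP+ and GFP- IgG1 GC cells were -2.29 (9.56e-07) and -1.69 (3.01e-05). A second probe set of Cdkn1b also put naive cells above the GC groups, with 8.94 ± 0.23 in naive cells and 6.06 ± 0.67, 5.48 ± 1.27 and 6.09 ± 0.40 in the GC groups (SD, n = 3 each), and correlated with the first at r = 0.941 over the 18 arrays.

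Cdkn2c, the INK4 inhibitor of CDK4 and CDK6 that encodes p18, rose most of the 9. Naive arrays gave 5.15, 5.68 and 4.56, and 1 of the 3 lay above its array median. GC arrays gave 8.27, 8.11 and 8.56 (IgE), 7.82, 7.49 and 8.82 (GFP+ IgG1) and 8.49, 7.91 and 8.28 (GFP- IgG1), all above the naive arrays. The difference was 3.19 in IgE GC cells (SE 0.34, adjusted p = 2.8e-06), or 9.10-fold, 2.92 in GFP+ IgG1 GC cells (8.65e-06) and 3.10 in GFP- IgG1 GC cells (4.23e-06). Naive signals lay near background, where array values are compressed. Cdkn2d, the p19 INK4 gene, was at 6.60 to 7.35 in naive cells and 6.82 to 7.96 in GC cells, overlapping, with differences of 0.54 (0.242), 0.27 (0.587) and 0.63 (0.158).

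Rb1, the substrate of the kinases, was at 9.53, 9.90 and 9.23 in naive cells. It was at 7.71, 7.89 and 7.72 in IgE GC cells, 7.40, 7.87 and 6.85 in GFP+ IgG1 GC cells and 8.12, 7.93 and 7.35 in GFP- IgG1 GC cells. The groups did not overlap, and more than 1 unit separated the highest GC array from the lowest naive array. The fall was 1.78 in IgE GC cells (SE 0.26, adjusted p = 6.54e-05), a 3.44-fold lower signal, and the differences in the IgG1 groups were -2.18 (8.76e-06) and -1.75 (8.44e-05).

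**Figure D2:**
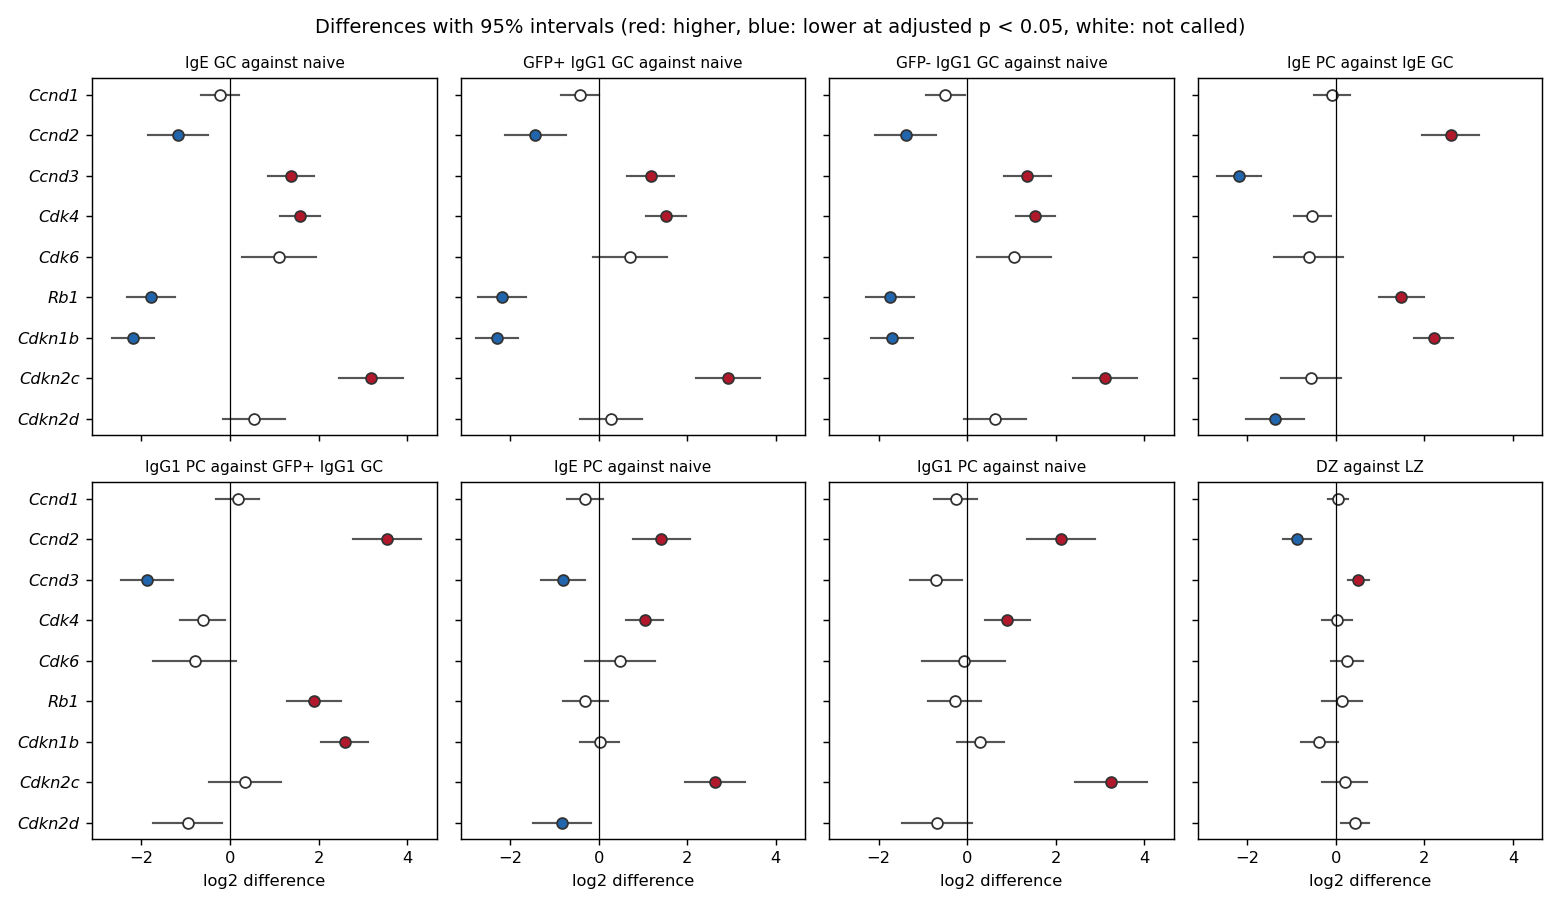
Log2 difference of each gene, with its 95% interval, in the comparisons of GC cells with naive cells, PC with GC cells, PC with naive cells and DZ with LZ cells. Filled points passed the test, and Ccnd2, Cdkn1b and Rb1 lie below 0 in GC against naive and above 0 in PC against GC.

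The next question was how plasma cells differed from GC cells of their own isotype. Ccnd2, Cdkn1b and Rb1 were higher in PC of both isotypes and Ccnd3 was lower. Cdkn2d was lower in IgE PC. For IgE, 5 of 9 genes were called beside 23.6% of all genes, 3 higher (10.2% of all) and 2 lower (13.4%). For IgG1, 4 of 9 were called beside 21.4%, 3 higher (8.32%) and 1 lower (13.1%). The IgG1 comparison rests on 2 PC arrays. A few markers of other cells were also higher in PC than in GC cells of their isotype. Prg2, a granule protein of eosinophils and 1 of 2 tested granulocyte and mast cell genes, was at 6.84 in IgE PC and 7.35 in IgG1 PC against 4.73 in either GC group. Thy1, the 1 called of 5 tested T cell genes, was at 9.63 and 9.56 against 7.57 and 7.42. The means of the other T cell genes were lower in IgE PC than in IgE GC cells. Cd3e was at 6.37 against 6.90, Cd3d 4.26 against 4.97, Cd3g 4.15 against 4.44, Cd4 5.05 against 5.29 and Cd8a 5.21 against 5.34. In IgG1 PC, Cd3e (7.16 against 6.46), Cd3d (5.28 against 4.26), Cd4 (5.08 against 4.82) and Cd8a (5.28 against 5.16) had higher means, and Cd3g (3.85 against 3.95) a lower one. Cd68, the 1 called of 5 tested macrophage and dendritic cell genes, was at 8.68 in IgE PC against 7.21, and at 7.70 in IgG1 PC against 7.02 (not called). The means of the whole lists were 4.17 to 4.77 on the PC arrays against 3.71 to 4.12 on these GC arrays for 5 granulocyte and mast cell genes. They were 5.68 to 6.39 against 5.26 to 6.01 for 6 T cell genes and 4.85 to 5.50 against 4.68 to 5.07 for 8 macrophage and dendritic cell genes. These list means include Prg2, Thy1 and Cd68, so they are not separate evidence. Apart from Prg2, group means of the granulocyte and mast cell genes were 3.47 to 4.58 in IgE PC against 3.15 to 4.59 in IgE GC cells. For IgG1 they were 3.26 to 4.91 in PC against 3.25 to 4.46 in GFP+ GC cells. The part of other cells in the PC differences was not tested.

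The largest of these differences was that of Ccnd2. It was at 9.53, 9.32, 9.45 and 9.24 in IgE PC and at 10.08 and 10.10 in IgG1 PC, above every GC and every naive array. The rise from IgE GC cells was 2.59 (SE 0.30, adjusted p = 6.15e-06), or 6.03-fold, and that from GFP+ IgG1 GC cells 3.55 (SE 0.36, 1.97e-06), or 11.7-fold. Ccnd3 showed the mirror image, with 7.83, 7.41, 7.89 and 7.55 in IgE PC and 7.32 and 8.22 in IgG1 PC, all below every GC array. Its differences were -2.18 (SE 0.23, adjusted p = 2.13e-06) and -1.87 (SE 0.28, 9.52e-05), a 4.53-fold and a 3.66-fold lower signal. Over the 18 arrays the signals of both cyclins correlated at r = -0.926, a description of arrays that fall into clusters by cell type.

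**Figure D3:**
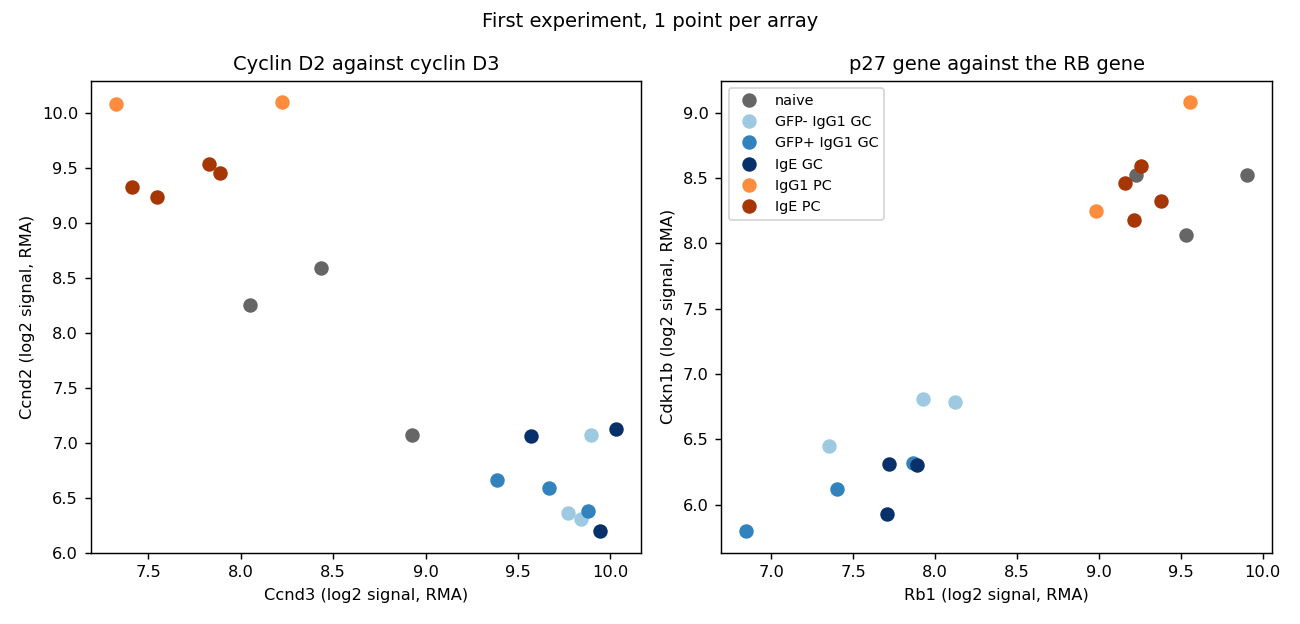
Log2 signals of pairs of these genes on the 18 arrays of the first experiment, coloured by group. Ccnd2 and Ccnd3 run in opposite directions (r = -0.926) and Cdkn1b and Rb1 in the same direction (r = 0.954). GC arrays lie at one end of each relation and PC arrays at the other, where the naive arrays join them for Cdkn1b and Rb1.

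Cdkn1b and Rb1 were above GC cells in PC and were not called against naive cells. Cdkn1b was at 8.33, 8.60, 8.18 and 8.46 in IgE PC and at 9.08 and 8.25 in IgG1 PC. Its difference from GC cells was 2.21 for IgE (SE 0.21, adjusted p = 5.52e-07) and 2.59 for IgG1 (SE 0.25, 1.02e-06). Against naive cells the differences were 0.02 (95% interval -0.42 to 0.46, adjusted p = 0.953) and 0.29 (-0.23 to 0.82, 0.434). The sign of the IgE value turned under several settings, and the second probe set had 8.18 ± 0.30 in IgE PC (SD, n = 4) against 8.94 ± 0.23 in naive cells. Rb1 was at 9.16 to 9.38 in IgE PC and at 9.56 and 8.98 in IgG1 PC. It was higher than in GC cells by 1.48 (SE 0.24, adjusted p = 0.00017) and 1.90 (SE 0.29, 0.000108). Against naive cells it differed by -0.30 (95% interval -0.81 to 0.20, adjusted p = 0.343) and -0.28 (-0.89 to 0.32, 0.523). With a further quantile normalization the first of these was -0.62 and was called (0.0343).

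The INK4 genes and the kinases behaved otherwise. Cdkn2c was at 7.27, 7.67, 8.05 and 8.04 in IgE PC and at 8.01 and 8.74 in IgG1 PC. The IgE PC arrays lay just below the lowest IgE GC array, at 8.11, and the IgG1 PC arrays overlapped the GFP+ IgG1 GC arrays. It differed from GC cells by -0.56 (adjusted p = 0.253) and 0.33 (0.598), and the second value was -0.03 without IgG1 PC replicate 2. It exceeded naive cells by 2.63 (4.98e-06) and 3.25 (5.02e-06), or 6.18-fold and 9.50-fold. Cdkn2d was at 6.18, 5.83, 6.64 and 5.79 in IgE PC, all below the IgE GC arrays at 7.63, 7.17 and 7.62, a difference of -1.36 (SE 0.31, adjusted p = 0.00349). In IgG1 PC, at 6.85 and 5.64, it differed from GFP+ IgG1 GC cells by -0.96 (0.0777). That difference moved with the PC array left out: it was -1.57 and called without IgG1 PC replicate 1 (0.015), and -0.36 without replicate 2 (0.656).

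Cdk4 was at 9.30, 9.67, 9.87 and 9.44 in IgE PC and at 9.31 and 9.56 in IgG1 PC, between naive and GC cells. No PC array reached the GC arrays of its isotype, yet the differences of -0.53 (adjusted p = 0.0634) and -0.62 (0.0779) did not pass. They passed with a further quantile normalization (-0.61, 0.0269, and -0.71, 0.0345) and without naive replicate 1 (0.0317 and 0.0407) or 3 (0.0298 and 0.0388). Cdk6 was at 6.93, 7.02, 6.74 and 5.75 in IgE PC and at 5.48 and 6.60 in IgG1 PC, differing from GC cells by -0.61 (0.284) and -0.80 (0.234). Ccnd1 differed by -0.09 and 0.17, neither called.

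Set against naive cells, IgE PC had 3 genes higher (Ccnd2, Cdk4 and Cdkn2c) and 2 lower (Ccnd3 and Cdkn2d), beside 23.0% and 14.1% of all genes and 37% in either direction. IgG1 PC had the same 3 higher and 0 lower, beside 17.1% and 12.2%, or 29.3% in either direction. Ccnd2 exceeded naive cells by 1.41 in IgE PC (adjusted p = 0.00142) and 2.11 in IgG1 PC (0.000255). Cdk4 exceeded them by 1.04 (0.000521) and 0.90 (0.00787). The IgG1 call of Cdk4 was lost without IgG1 PC replicate 2 (0.0839) and in a fit on these groups alone (0.134). Ccnd3 differed from naive cells by -0.80 in IgE PC (0.012) and -0.70 in IgG1 PC (0.0708, not called). The IgG1 value was called with a further quantile normalization (-0.85, 0.026) and without IgG1 PC replicate 2 (-1.15, 0.0131) or naive replicate 3 (-0.91, 0.0247). It was -0.25 without IgG1 PC replicate 1. Cdkn2d differed by -0.82 in IgE PC (0.0471) and -0.69 in IgG1 PC (0.191, not called). The IgG1 value was -1.30 and called without IgG1 PC replicate 1 (0.0309), and -0.08 without replicate 2. Without naive replicate 1, Ccnd3 (-0.57, 0.0768) and Cdkn2d (-0.62, 0.189) no longer passed in IgE PC. Without naive replicate 2, Cdk6 passed in IgE PC as well (0.94, 0.0467). Cdkn2d lost its call in 13 settings in all.

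The study's main question was whether IgE and IgG1 cells differ. In GC cells none of the 9 genes was called between IgE and GFP+ IgG1 cells, nor was any of the 12098 genes (0%). In limma, 264 genes had an unadjusted p under 0.05, below the share of 0.05 that no difference would give. The difference, IgE minus IgG1, was 0.25 for Ccnd2 (95% interval -0.43 to 0.94), 0.20 for Ccnd3 (-0.32 to 0.73), 0.10 for Cdkn1b (-0.37 to 0.57) and 0.40 for Rb1 (-0.14 to 0.94), each with an adjusted p of 1. The widest interval of the 9 was that of Cdk6, from -0.45 to 1.22, and a missed threshold here does not show equal levels.

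Between IgE PC and IgG1 PC, 0 of the 9 genes were called, beside 116 of all genes or 0.959%. Ccnd2 had the lowest adjusted p of the 9, and each IgE PC array, at most 9.53, lay below both IgG1 PC arrays, at least 10.08. Its difference was -0.70 (95% interval -1.43 to 0.03, adjusted p = 0.407). Cdkn2c differed by -0.62 (-1.38 to 0.14, 0.509) and Cdk6 by 0.57 (-0.32 to 1.46, 0.621). The last 2 values moved with the IgG1 PC array left out. Without IgG1 PC replicate 1 or 2, Cdkn2c differed by -0.98 or -0.25 and Cdk6 by 0.01 or 1.13. A test of the PC against GC change between isotypes gave -0.95 for Ccnd2 (95% interval -1.95 to 0.05, adjusted p = 0.765) and -0.89 for Cdkn2c (-1.94 to 0.16, 0.816), the latter -0.52 without IgG1 PC replicate 2. None of the 9 was called there, beside 0.0909% of all genes.

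GFP in IgG1 GC cells marks the second chromosome's rearrangement to epsilon and not a change of isotype. None of the 9 genes was called between GFP+ and GFP- IgG1 GC cells, nor was any other gene (0%). An unadjusted p under 0.05 in limma was reached by 265 genes, again a share below 0.05. Cdkn1b was the nearest, as the GFP+ arrays (5.80 to 6.32) lay below the GFP- arrays (6.45 to 6.81). Its difference was -0.60 (95% interval -1.07 to -0.13, unadjusted p = 0.0152 and adjusted p = 1 in limma). On the second probe set of Cdkn1b the groups overlapped, at 4.06 to 6.49 (GFP+) and 5.63 to 6.37 (GFP-). In the second experiment the GFP+ minus GFP- difference of Cdkn1b was -0.03 (95% interval -0.46 to 0.39, adjusted p = 0.992 in limma). Rb1 differed by -0.43 (-0.97 to 0.11), with overlapping groups.

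**Figure D4:**
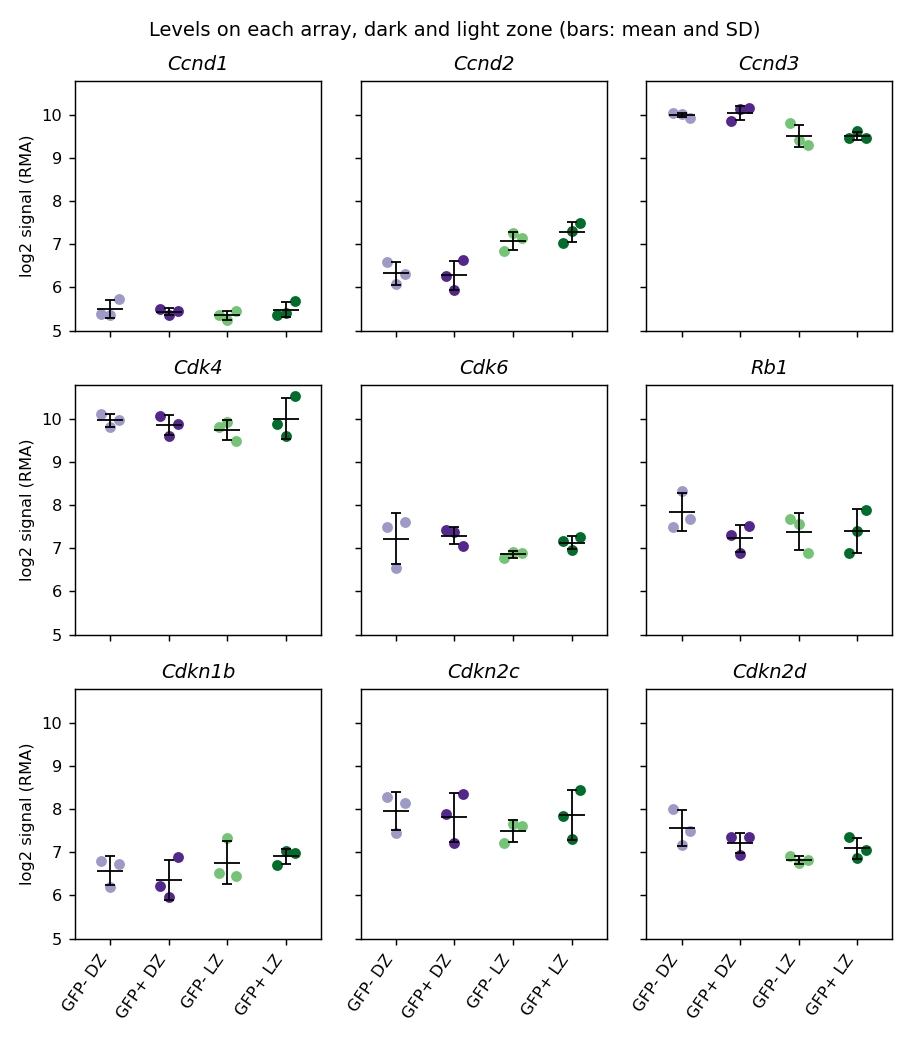
Log2 signal of the 9 measured genes on the 12 arrays of the second experiment, DZ and LZ cells with and without GFP, with group means and SD. Ccnd2 was lower and Ccnd3 higher on every DZ array than on any LZ array.

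The second experiment asked how zones of the IgG1 germinal centre differ. Cells of the dark zone mostly divide, and those of the light zone are selected by T cell help. Of the 9 genes, Ccnd3 was higher in DZ cells and Ccnd2 was lower, 1 in each direction beside 3.92% and 3.00% of the 11050 genes tested, or 6.91% in either direction. All genes split into 433 higher and 331 lower, and into 356 and 410 with a further quantile normalization. Mki67 was higher in DZ cells by 0.63, and the mean of the cycling markers Mki67 and Top2a was 10.29 to 10.73 on the DZ arrays and 9.92 to 10.33 on the LZ arrays. The part of cycling cells in the cyclin differences was not tested.

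Ccnd2 was at 6.27, 5.95 and 6.63 in GFP+ DZ cells and at 6.60, 6.07 and 6.32 in GFP- DZ cells. In LZ cells it was at 7.03, 7.31 and 7.50 (GFP+) and at 6.84, 7.25 and 7.15 (GFP-). The highest DZ array lay below the lowest LZ array. The difference, DZ minus LZ, was -0.87 (SE 0.15, adjusted p = 0.00341), a 1.83-fold lower signal in DZ cells. Ccnd3 ran from 9.86 to 10.16 (median 10.03) on the 6 DZ arrays and from 9.30 to 9.80 (median 9.45) on the 6 LZ arrays, again without overlap. Its difference was 0.51 (SE 0.11, adjusted p = 0.0141), or 1.43-fold.

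The other 7 genes did not pass. Cdkn2d ran from 6.94 to 8.0 (median 7.36) in DZ and from 6.75 to 7.36 (median 6.90) in LZ cells, a difference of 0.43 (adjusted p = 0.109). With the replicate number as a block in the limma fit, Cdkn2d was called (adjusted p = 0.037). Cdkn1b ran from 5.97 to 6.89 in DZ and from 6.44 to 7.33 in LZ cells (-0.37, 0.306). Its second probe set correlated with the first at only r = 0.446 over these 12 arrays, with 5.72 ± 0.61 in DZ and 6.28 ± 0.31 in LZ cells (SD, n = 6 each). Cdk6 differed by 0.26 (0.412), Cdkn2c by 0.20 (0.668), Rb1 by 0.15 (0.739), Ccnd1 by 0.05 (0.828) and Cdk4 by 0.03 (95% interval -0.31 to 0.37, 0.940). Without GFP- DZ replicate 2, Cdk6 (0.43, 0.0368) and Cdkn2d (0.52, 0.0453) passed as well. Cdk4 was at 9.61 to 10.11 in DZ and 9.49 to 10.52 in LZ cells.

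GFP made no called difference within the zones, for the 9 genes or for any gene (0%). An unadjusted p under 0.05 in limma was reached by 519 genes, a share below 0.05. Rb1 had the widest gap, -0.30 (95% interval -0.76 to 0.16, adjusted p = 0.941). For the zone difference, a test between GFP+ and GFP- cells also called 0 of the 9 and 0% of all genes. There 543 had an unadjusted p under 0.05 in limma, also a share below 0.05. The values there were -0.61 for Cdkn2d (-1.25 to 0.03, adjusted p = 0.986) and -0.61 for Rb1 (-1.53 to 0.30, 0.988).

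Around these genes, much of the other G1/S machinery rose in GC cells. Of 16 further G1/S genes, 10 were higher in IgE GC than in naive cells, 11 in GFP+ and 11 in GFP- IgG1 GC cells, and 0 were lower. Over all genes, 19.3%, 16.8% and 20.5% were higher and 7.4%, 6.43% and 9.35% lower. The median difference of the 16 was 1.21, 1.18 and 1.32, beside 0.06, 0.02 and 0.07 over all genes. In IgE GC cells the leading ones were Cks1b (4.25), a kinase subunit that helps degrade p27, Ccne2 (3.23), the cyclin E2 partner of CDK2, and Rbl1 (2.28), the retinoblastoma relative p107. The remaining inhibitors Cdkn1c, Cdkn2a and Cdkn2b were not called in any GC group. In PC, 10 (IgE) and 7 (IgG1) of the 16 were above naive cells, beside 23% and 17.1% of all genes. None were below, beside 14.1% and 12.2%. Against GC cells the counts were near the shares of all genes. In IgE PC, Cdk2 (-1.17) and Rbl1 (-0.98) were lower, 2 of 16 beside 13.4% of all genes. In IgG1 PC, Cdk2 (-1.54), Rbl1 (-1.30) and Ccne2 (-1.09) were lower, 3 of 16 beside 13.1%. Cdc25a (1.00), a phosphatase that activates CDK2, was higher, 1 of 16 beside 8.32%.

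The retinoblastoma protein holds back E2F factors such as those made from E2f1, E2f2 and E2f3, whereas E2f7 and E2f8 encode repressors that it does not bind. Of 10 E2F and DP genes, 7, 8 and 7 were higher in the IgE, GFP+ IgG1 and GFP- IgG1 GC groups and 0 lower, beside 19.3%, 16.8% and 20.5% of all genes higher. E2f8 (4.52) and E2f3 (2.47) led in IgE GC cells. In PC, 3 of 10 were lower than in IgE GC cells (E2f8 -1.11, E2f7 -1.10, E2f5 -1.07) and 4 lower than in GFP+ IgG1 GC cells, beside 13.4% and 13.1% of all genes, with 0 higher. Of 14 measured replication genes known as E2F targets, 14, 13 and 14 were higher in the GC groups, beside the same 19.3%, 16.8% and 20.5%. Their median differences were 2.86, 2.70 and 2.80. Rrm2 (5.63), a subunit of ribonucleotide reductase, and Ccna2 (4.97), cyclin A2, led in IgE GC cells. In PC, 7 (IgE) and 5 (IgG1) of the 14 were lower than in GC cells, beside the same 13.4% and 13.1%. In each isotype 13 of 14 were higher than in naive cells, beside 23% (IgE) and 17.1% (IgG1) of all genes. In DZ cells 3 of the 14 were higher than in LZ cells (Ccna2 0.72, Rrm1 0.53, Mcm6 0.51), beside 3.92% of all genes. Of the further G1/S genes, 15 were tested there, and Cks1b (0.76), Ccne2 (0.64) and Rbl1 (0.52) were higher, beside the same share. Fbxw7 (-0.53), which targets cyclin E for degradation, was the 1 of 15 that was lower, beside 3% of all genes.

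Known regulators of the D cyclins and inhibitors were mixed. Of 12 measured, 2 were higher and 2 lower than in naive cells in each GC group, 4 of 12 called beside 26.7%, 23.3% and 29.8% of all genes. A count so near the share of all genes is no result about these regulators as a set. In IgE GC cells the 4 called were Akt1 (1.73), Bcl6 (1.55), Klf2 (-1.66) and Foxo3 (-0.87), the last 2 being factors of resting lymphocytes. In IgE PC against IgE GC cells, Prdm1 (4.35) and Foxo3 (1.69) were higher, 2 of 12 beside 10.2% of all genes. Bcl6 (-5.87), Rel (-3.59) and Akt1 (-0.85) led the 4 of 12 that were lower, beside 13.4%. Bcl6 is the repressor that defines GC cells, and Prdm1 the factor that drives PC formation. In DZ against LZ cells, Akt1 (0.58) was higher, 1 of 11 tested beside 3.92% of all genes. Myc (-0.40) and Rel (-0.39) were lower, 2 of 11 beside 3%. Of 12 tested genes known as p53 targets, 2 were higher (Gadd45a 1.30, Mdm2 1.29) and 1 lower (Sesn1 -1.71) in IgE GC than in naive cells, 3 of 12 beside 26.7% of all genes. In IgE PC against IgE GC cells 3 were higher (Trp53inp1 2.28, Btg2 1.04, Sesn2 0.87) and 0 lower, 3 of 12 beside 23.6%. By direction, 10.2% of all genes were higher there and 13.4% lower. Both counts are near the share of all genes called in either direction and are no result about these targets.

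The genes whose signals were most like each of these over the 18 arrays of the first experiment are given by Pearson's r, a description of arrays that fall into cell types. Ccnd2 was closest to Entpd1 (0.970), Bst2 (0.960) and Cacna1e (0.958), and Ccnd3 to Rfc1 (0.969), Nap1l1 (0.963) and Mprip (0.962). Cdk4 was closest to Zwilch (0.974), Pcna (0.973) and Hells (0.972), and Cdkn2c to Tcf19 (0.965), H4c14 (0.957) and Cdk1 (0.950). Among all genes tested, Rb1 (0.954) was the third closest to Cdkn1b, after Aff1 (0.962) and Man1a (0.957). Likewise Cdkn1b was the second closest to Rb1, between Clec2d (0.967) and B2m (0.953). Cdk6 had Polr3f (0.913), Cdkn2d had Dhx16 (0.895) and Ccnd1 had C130021I20Rik (0.905) as the closest gene.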

How the data were processed

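Total RNA (2 ng, amplified) from 30 sorted pools was hybridised to Affymetrix arrays, per the labels' protocols. The deposited log2 values are from RMA (R 2.15.2), as given by the submitters' processing notes. No source used here says if the experiments were normalized together, and levels were not compared across them. Of 34760 probe sets, 21640 had 1 gene symbol, 1321 several and 11799 none. RefSeq names (GRCm38.p6) matched 21553 of the 21640. Each gene was represented by its single-symbol probe set with the highest mean. Genes were tested that exceeded the array median on at least 2 arrays (first experiment) or 3 arrays (second).

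Linear models were fitted with limma 3.58.1 (lmFit, eBayes) in R 4.3.3 to all arrays of an experiment, for 14 comparisons. Benjamini-Hochberg adjustment covered all tested genes, and an adjusted p under 0.05 was called. Group errors are SD over arrays and errors of differences are SE of the fit. Replicates are independent sorts of pools of 3 mice. No source used here names a hybridisation date or batch. RMA hides changes in total RNA per cell and compresses low signals, and the number of arrays limits the precision. The fit was tested on simulated data with known changes. Of log2 changes of 1, it recovered 49% in IgE GC against naive and 90% in DZ against LZ. Of log2 changes of 2, it recovered 92% and 99%. False calls made up 5.37% and 3.08% of the calls. The members, lists and tests were chosen with earlier results of these data known. Named genes are the measured members, up to 3 called genes per direction of each list, and the 3 genes most like each member (1 for Ccnd1, Cdk6 and Cdkn2d in the text). Alternatives were a further quantile normalization, no filter, the mean of probe sets, an intensity trend, a fit on the compared groups alone, a replicate block, and leaving out each array or both that stood apart. Plots used matplotlib 3.10.9 (python 3.11.15).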

Additional observations from a re-analysis of the deposited data

How the results depend on the processing

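Of 126 gene by comparison results, 37 were called, 33 of these under every setting run, and no called value turned its sign. The 4 that lost their call somewhere (Ccnd2 in IgE GC, Ccnd3 and Cdkn2d in IgE PC and Cdk4 in IgG1 PC, each against naive cells) are given with their results, and 14 uncalled results passed under at least 1 setting. Without both arrays that stood apart, Ccnd3 (-0.57, adjusted p = 0.0718 in limma) and Cdkn2d (-0.62, 0.18) were not called in IgE PC against naive. The following are among the uncalled differences that turned their sign. Cdkn1b in IgE PC against naive was -0.25 with a further quantile normalization, 0 with the replicate block, -0.37 with the mean of probe sets and -0.13 without both arrays that stood apart. With quantile normalization, Cdk6 in IgG1 PC against naive was 0.04 and Cdk4 in DZ against LZ -0.04. Cdkn1b in IgE against GFP+ IgG1 GC was -0.04 without both arrays that stood apart. Leaving out 1 array gave ranges of -0.20 to 0.08 for Ccnd1 in IgE PC against GC, -0.03 to 0.72 for Cdkn2c in IgG1 PC against GC, -0.13 to 0.10 for Cdkn1b in IgE PC against naive and -0.64 to 0.47 for Cdk6 in IgG1 PC against naive. The ranges were -0.12 to 0.71 for Cdkn1b and -0.57 to 0 for Rb1 in IgG1 PC against naive, -0.04 to 0.23 for Cdkn1b in IgE against GFP+ IgG1 GC, and -0.01 to 0.10 for Ccnd1 and -0.07 to 0.16 for Cdk4 in DZ against LZ. Over all settings, IgE PC against IgG1 PC ran from -0.55 to 0.34 for Ccnd3 and from -0.69 to 0.14 for Cdkn1b. The ranges there were -0.74 to 0.47 for Cdkn2d and -0.31 to 0.27 for Rb1. Signs also turned for some genes between IgE and GFP+ IgG1 GC cells and between GFP+ and GFP- cells of both experiments. The same held for the PC against GC change between isotypes and the zone change between GFP+ and GFP- cells. The cause was not tested.

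In a fit on the compared groups alone, all-gene calls against naive cells fell from 3230 to 2037 (IgE GC), 2813 to 1527 (GFP+ IgG1 GC), 3606 to 2061 (GFP- IgG1 GC) and 3540 to 1670 (IgG1 PC), where fewer arrays entered. Between IgE PC and IgG1 PC the 116 calls became 0 so, 72 with the replicate block, 227 without both arrays that stood apart, and 76 to 253 without 1 array. The isotype test of the PC against GC change had 11 calls, 1 in the fit on those groups alone, 5 with the block and 2 to 37 without 1 array. DZ against LZ had 764 calls and 480 without GFP+ LZ replicate 2. The labels do not say that a replicate number marks a shared sort, and same-numbered pairs correlated over 0.1 in 9 of 40 cases in the first experiment and 3 of 18 in the second, so the numbers were not taken as pairs. In the second experiment 12 of 12 arrays correlated best with their own number (mean r 0.0848 against -0.0423 for other numbers), a hint of pairing from the data and not the design, and in the first 10 of 18 did. With the replicate block, 7, 6 and 7 of the 9 genes were called in IgE, GFP+ IgG1 and GFP- IgG1 GC against naive. Of all 12098 genes, the block called 3268, 2817 and 3579 there. In IgE and IgG1 PC against GC it called 5 and 4 of the 9, beside 2621 and 2601 of all genes. The block added Cdk6 in 2 GC groups against naive (0.0198 and 0.024) and Cdkn2d in DZ against LZ (0.037). It dropped Cdkn2d in IgE PC against naive (0.0826).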
